A study of Mus musculus with 8 samples.

Results

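Fibrinogen was followed in platelet RNA through the genes of its chains, Fga, Fgb and Fgg, which are 3 of the 55487 genes in the deposited tables and were picked by symbol. They were chosen with their counts per library and their correlation with Alb, the gene of serum albumin, already known. Those values are therefore a description. The correlation has no test, and the fits between labels, made on the same counts over all genes, support nothing about the chains. The question was whether platelets hold fibrinogen RNA of their own. Platelets came from 4 male mice labelled Dnmt3a+/-, heterozygous for the gene of a DNA methyltransferase, and from 4 male WT littermates, all aged 13 weeks. Each mouse gave 1 library of polyadenylated RNA from platelets pelleted out of platelet-rich plasma, with red cells and leukocytes removed by beads against Ter119 and CD45. The sources used here do not say how the mutant allele was made or in which cells it is present.

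Total counts ran from 15620972 to 22160394 in the libraries labelled Dnmt3a+/- and from 15185218 to 17398666 in WT. Dnmt3a itself ran from 9.96 to 24.2 CPM (counts per 1000000 counts after TMM scaling) in the libraries labelled Dnmt3a+/- and from 18.2 to 22.1 CPM in WT. Replicates 3 and 4 of the libraries labelled Dnmt3a+/- lay inside or above the WT range, so every direction below is between labels. The platelet label fits the defining markers, since all 15 platelet and megakaryocyte marker genes were expressed enough to be tested and Pf4, platelet factor 4, averaged 5636 ± 665 CPM in the libraries labelled Dnmt3a+/- and 5408 ± 409 CPM in WT (SD, n = 4 each). WT replicate 1 stood apart in red cell transcripts, with 2.03% of its counts in 9 red cell marker genes, where the libraries labelled Dnmt3a+/- had 0.317% to 0.486% and the other WT libraries 0.203% to 0.311%.

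Fibrinogen is a plasma protein built from paired alpha, beta and gamma chains, encoded by Fga, Fgb and Fgg. Hepatocytes make and secrete it, and thrombin turns it into fibrin, the fibre of a blood clot. Platelets carry fibrinogen protein in their alpha granules and bind it through the integrin of Itga2b and Itgb3, which also takes it up from plasma. Whether platelets and megakaryocytes also transcribe the genes is therefore a separate question from whether they hold the protein.

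The genes lie together within 42.1 kb of chromosome 3, from 83007724 to 83049863 on GRCm38, the build also called mm10. Fgg (ENSMUSG00000033860) spans 83007724 to 83015049 on the plus strand. Fga (ENSMUSG00000028001) spans 83026076 to 83033627 on the plus strand. Fgb (ENSMUSG00000033831) spans 83040141 to 83049863 on the minus strand. A long noncoding RNA, Gm30097, overlaps the start of Fgg on the opposite strand and had 0 counts in all 8 libraries. The library kit keeps strand, but the strand setting of the counting was not given in the sources used here, and without it reads of such a pair cannot be told apart.

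The promoter windows of the chains are shown as a description. The chains moved together across the libraries, but other liver genes such as Apoa1 moved with them, and no link to the windows was tested. Each runs from 250 bases before to 50 bases after the RefSeq start site (GRCm38.p6), 5′ to 3′ on the strand of its gene, with all 3 genes matched. Capitals mark matches on either strand to the letters TTGCNNAA, a form of the C/EBP site, and TTCNNGGAA, a form of the STAT site.
Fgg, chr3:83007474-83007773, plus strand: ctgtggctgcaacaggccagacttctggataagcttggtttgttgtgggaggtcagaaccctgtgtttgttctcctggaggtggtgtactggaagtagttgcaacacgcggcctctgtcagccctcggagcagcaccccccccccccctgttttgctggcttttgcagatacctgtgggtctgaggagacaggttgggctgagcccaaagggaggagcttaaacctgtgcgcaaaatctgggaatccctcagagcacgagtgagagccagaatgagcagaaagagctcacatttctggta
Fga, chr3:83025903-83026202, plus strand: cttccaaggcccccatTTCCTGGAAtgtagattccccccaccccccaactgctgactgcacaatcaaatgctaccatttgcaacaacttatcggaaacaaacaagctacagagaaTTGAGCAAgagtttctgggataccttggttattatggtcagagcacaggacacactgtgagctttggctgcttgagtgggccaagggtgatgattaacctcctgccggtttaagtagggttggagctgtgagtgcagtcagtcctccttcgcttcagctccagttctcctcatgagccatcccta
Fgb, chr3:83049814-83050113, minus strand: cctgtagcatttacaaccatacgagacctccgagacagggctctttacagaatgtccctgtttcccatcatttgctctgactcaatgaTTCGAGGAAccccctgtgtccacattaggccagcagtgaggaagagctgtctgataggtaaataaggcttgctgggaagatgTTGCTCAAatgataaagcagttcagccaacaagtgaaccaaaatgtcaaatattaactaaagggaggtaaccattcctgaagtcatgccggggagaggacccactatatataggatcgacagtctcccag

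The C/EBP form stood at -135 in the Fga window and at -80 in the Fgb window, counted from the start site to the first base as printed. The STAT form stood at -234 in Fga and at -162 in Fgb. The forms did not overlap each other. Of 32851 mouse promoter windows of this length, 10.8% hold the C/EBP form and 4.81% the STAT form. Fgg held neither. The letters AGATAA, a form of the site of the GATA factors of megakaryocytes, were in none of the 3 windows and in 11.2% of all windows. Other forms of that site were not searched for, and the Fgb window holds the similar letters TGATAA and TGATAG. The same 3 windows held no match to ACCGGAA, a site of ETS factors (3.72% of all windows), TATAAA (13.6%) or the HNF4 letters CAAAGTCCA (0.475%). A match or its absence describes these letters in these windows only.

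Fibrinogen RNA was unevenly spread over the libraries. Fga, the alpha chain, had 57, 0, 93 and 0 counts in replicates 1 to 4 of the libraries labelled Dnmt3a+/-, and 8, 271, 1085 and 806 counts in WT replicates 1 to 4. Fgb, the beta chain, had 32, 0, 95 and 0 counts in the libraries labelled Dnmt3a+/-, and 8, 169, 850 and 641 counts in WT. Fgg, the gamma chain that carries the end bound by the platelet integrin, had 35, 0, 81 and 0 counts in the libraries labelled Dnmt3a+/-, and 7, 136, 836 and 621 counts in WT. All chains were thus high in WT replicates 3 and 4, at 0 in the libraries labelled Dnmt3a+/- replicates 2 and 4, and low in WT replicate 1, which lay below the libraries labelled Dnmt3a+/- replicates 1 and 3. The values of the labels therefore overlapped for every chain, as they did for all but 187 of the 7362 genes tested (2.54% without overlap).

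**Figure D1:**
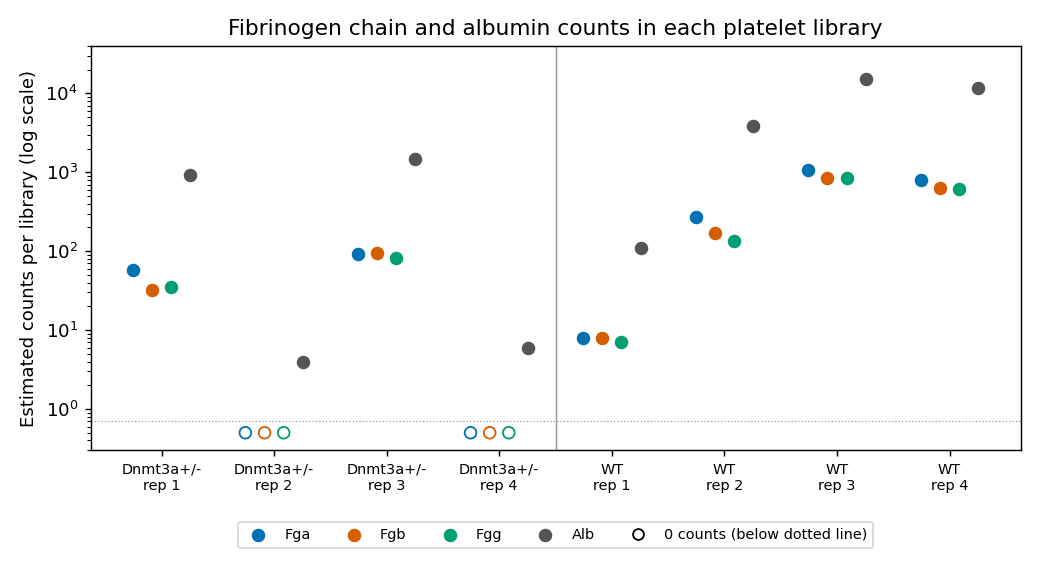
Estimated counts of Fga, Fgb, Fgg and Alb in each library on a log axis, with counts of 0 drawn as open circles below the dotted line. The chains sit below Alb in every library, are at 0 in the libraries labelled Dnmt3a+/- replicates 2 and 4, and reach 621 to 1085 counts in WT replicates 3 and 4.

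Scaled for depth, Fga averaged 2.35 ± 2.82 CPM in the libraries labelled Dnmt3a+/- and 33.9 ± 31.6 CPM in WT. Fgb averaged 1.97 ± 2.72 CPM in the libraries labelled Dnmt3a+/- and 26.2 ± 25.4 CPM in WT. Fgg averaged 1.81 ± 2.34 CPM in the libraries labelled Dnmt3a+/- and 25.2 ± 25.2 CPM in WT (SD, n = 4 for each group and gene). In each chain the spread within a label was about as large as its mean. Log2 fold changes, Dnmt3a+/- minus WT, were -3.89 for Fga (SE 1.30), -3.77 for Fgb (SE 1.29) and -3.84 for Fgg (SE 1.30). None passed, with edgeR quasi-likelihood adjusted p-values of 0.706, 0.741 and 0.732 over the 7362 genes tested. In that fit 0 of 7362 genes were called (percent called 0%), while 362 had an unadjusted p under 0.05 (4.92%). All 3 chains were among the 235 genes lower at that level (3.19%), which is no support for them, since they were chosen on these values. DESeq2 called 9 genes, all lower (0.122%), and limma on log2 TPM called 0, and neither called a fibrinogen gene.

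Which chains passed changed with the low-count filter and with WT replicate 1. These fits too use the counts the chains were chosen on, so a pass in them is no support. When genes of low counts were kept in, all 3 chains passed as lower in the libraries labelled Dnmt3a+/-, with edgeR adjusted p-values of 0.00067 for Fga, 0.00094 for Fgb and 0.00080 for Fgg. In that fit 246 of 18462 genes were called lower (1.33%). Without WT replicate 1, Fga passed (log2 fold change -4.32, SE 0.94, edgeR adjusted p = 0.0437), while Fgb (-4.19, adjusted p = 0.0595) and Fgg (-4.27, adjusted p = 0.0548) did not. In that fit 134 of 7718 genes were called lower (1.74%).

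Albumin followed the same order of libraries. Alb had 935, 4, 1474 and 6 counts in replicates 1 to 4 of the libraries labelled Dnmt3a+/-, and 110, 3890, 15123 and 11691 counts in WT replicates 1 to 4. The Pearson correlation with Alb over the 8 libraries, on the log2(CPM + 0.5) scale, was 0.978 for Fga, 0.967 for Fgb and 0.964 for Fgg. Spearman's rho was 0.994 for each, because the chains tie at 0 where Alb had 4 and 6 counts. Without those libraries, the 2 farthest from the median of Alb, r was 0.994 for Fga, 0.979 for Fgb and 0.979 for Fgg (n = 6). The chains correlated with each other at 0.995 (Fga with Fgb), 0.995 (Fga with Fgg) and 0.999 (Fgb with Fgg). With 4 libraries a label, no correlation was computed within a label, and the labels name no batch. In bulk RNA, fewer cells of a type and less RNA per cell cannot be told apart.

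**Figure D2:**
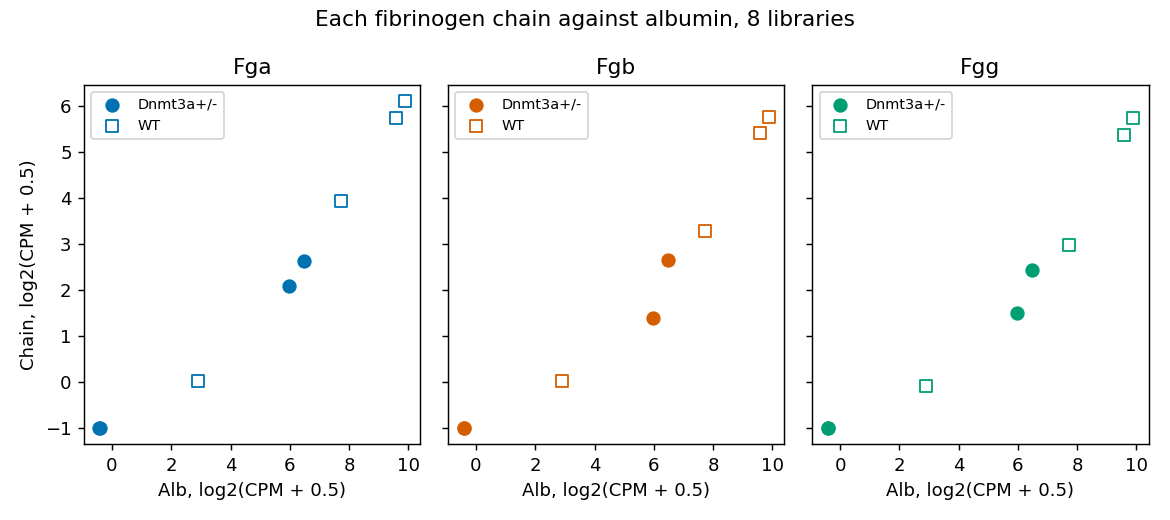
Each chain (vertical) against Alb (horizontal) as log2(CPM + 0.5), 1 point per library, filled for the libraries labelled Dnmt3a+/- and open for WT. The points of both labels follow 1 line for Fga, Fgb and Fgg (r of 0.978, 0.967 and 0.964), and the lowest filled point stands for 2 libraries that nearly coincide.

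The ratio of each chain to Alb was taken in the 6 libraries with at least 100 Alb counts. For Fga this ratio was 6.10 and 6.31 counts per 100 Alb counts in the libraries labelled Dnmt3a+/- replicates 1 and 3, and 7.27, 6.97, 7.17 and 6.89 in WT replicates 1 to 4. Between its highest and lowest library the Fga ratio differed 1.19-fold, while Fga itself ran over a 134-fold range of CPM and Alb over a 135-fold range in these 6 libraries. The 95% Wilson intervals of Fga overlapped in all 6, for example 4.67 to 7.96 in the library labelled Dnmt3a+/- replicate 1 and 6.75 to 7.63 in WT replicate 3. These intervals come from the chain's share of chain plus Alb counts and cover counting error only. WT replicate 1, with 8 Fga counts and 110 Alb counts, had an interval of 3.60 to 14.7 and so says little of its own.

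Fgb and Fgg kept less closely to Alb than Fga. Fgb was at 3.42 and 6.45 per 100 Alb counts in the libraries labelled Dnmt3a+/- replicates 1 and 3, and at 7.27, 4.34, 5.62 and 5.48 in WT replicates 1 to 4. Fgg was at 3.74 and 5.50 in the libraries labelled Dnmt3a+/- replicates 1 and 3, and at 6.36, 3.50, 5.53 and 5.31 in WT replicates 1 to 4. The library labelled Dnmt3a+/- replicate 1 and WT replicate 2 were thus low in both chains relative to Alb. For Fgg the Wilson interval was 2.95 to 4.15 in WT replicate 2 and 5.16 to 5.93 in WT replicate 3, which do not overlap. For Fgb the interval was 2.41 to 4.86 in the library labelled Dnmt3a+/- replicate 1 and 5.24 to 7.93 in the library labelled Dnmt3a+/- replicate 3, which do not overlap either.

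**Figure D3:**
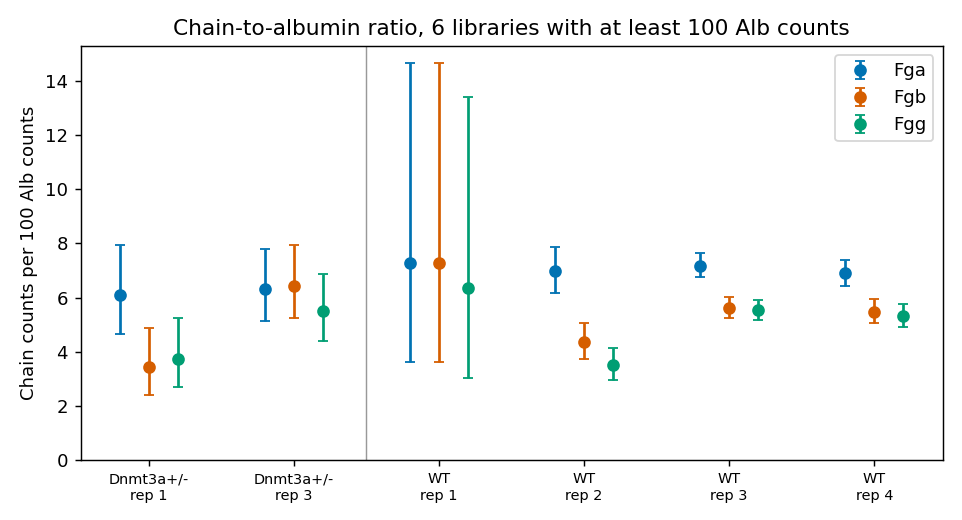
Counts of each chain per 100 Alb counts in the 6 libraries with at least 100 Alb counts, with 95% Wilson intervals for counting error. Fga stays between 6.10 and 7.27, while Fgb and Fgg are lower in the library labelled Dnmt3a+/- replicate 1 and in WT replicate 2.

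In the libraries labelled Dnmt3a+/- replicates 2 and 4 all chains were at 0, of 15884630 and 22160394 counts, which again describes the counts the chains were chosen on. At the Alb ratios of the other libraries, their 4 and 6 Alb counts go with 0.244 to 0.291 and 0.366 to 0.436 Fga counts, so the zeros do not set the chain ratio apart there. A count of 0 allows up to 3 expected counts per library, or 0.189 and 0.135 counts per 1000000 in replicates 2 and 4. Fibrinogen RNA below that level was not detectable at this depth. Levels were set per kilobase, with the shortest annotated coding transcript of a chain and the longest of the other gene, which gives the smaller fold. In replicate 2, Fga was then at least 20745-fold lower than Itga2b and at least 112118-fold lower than Pf4. In replicate 4, Fga was at least 29618-fold lower than Itga2b and at least 127821-fold lower than Pf4. For Fgg the bounds against Itga2b were 16880-fold in replicate 2 and 24101-fold in replicate 4.

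Per length, the alpha and gamma chains were at like levels and the beta chain was lower. Fga had 2.05, 0, 3.20 and 0 TPM (transcripts per 1000000, corrected for length) in the libraries labelled Dnmt3a+/-, and 0.28, 9.06, 33.49 and 30.46 TPM in WT. Fgg had 1.60, 0, 3.50 and 0 TPM in the libraries labelled Dnmt3a+/-, and 0.31, 5.68, 32.26 and 29.38 TPM in WT. Fgb had 0.62, 0, 1.75 and 0 TPM in the libraries labelled Dnmt3a+/-, and 0.15, 3.02, 13.96 and 12.82 TPM in WT. The TPM of Fga over that of Fgb averaged 2.46 ± 0.59, and that of Fgg over Fgb 2.19 ± 0.25 (SD, n = 6 libraries with counts). TPM divides by length, and the annotated coding transcript of Fgb has 3810 bases, against at most 2587 for Fga and 1741 for Fgg. In counts, Fga over Fgb averaged 1.32 ± 0.32 and Fgg over Fgb 0.93 ± 0.11.

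The mix of the chains was not the same in every library. Fga made up 46.0% of the fibrinogen counts in the library labelled Dnmt3a+/- replicate 1 (95% Wilson interval 37.4 to 54.7, of 124 counts) and 34.6% in replicate 3 of that label (29.1 to 40.4, of 269 counts). In WT it made up 34.8% in replicate 1 (18.8 to 55.1, of 23 counts), 47.0% in replicate 2 (43.0 to 51.1, of 576 counts), 39.2% in replicate 3 (37.4 to 41.0, of 2771 counts) and 39.0% in replicate 4 (36.9 to 41.1, of 2068 counts). WT replicate 2 thus stood above WT replicates 3 and 4 by more than counting error. WT replicates 3 and 4, the deepest in fibrinogen, had nearly the same mix, with Fgb at 30.7% and 31.0% and Fgg at 30.2% and 30.0%.

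Other liver products shared the pattern of the chains. The 10 genes most like the mean of the chains over the 8 libraries were Apoa1 (r = 0.999), Serpinc1, Pzp, Ahsg, Mug1, Serpina1a, Mup3, Serpina1c, Apob and Trf (0.993). They encode apolipoproteins A1 and B, antithrombin, alpha-2-macroglobulin relatives, fetuin A, alpha-1-antitrypsin forms, a major urinary protein and transferrin, all secreted by liver. The Serpina1 and major urinary protein genes belong to families of near-identical copies, so their counts are uncertain. Over all genes tested, 89 of 7362 (1.21%) had an r over 0.9, and the median r was 0.0004.

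Of 43 tested liver genes of secreted plasma proteins, 38 had an r over 0.9 with the chains. All 43 had negative log2 fold changes, with a median of -3.70 beside -0.01 for all genes tested, and 0 passed the edgeR threshold. Of 22 tested liver enzymes and other proteins that stay in the cell, 15 had an r over 0.9, among them Mgst1 (r = 0.91), Fabp1 (0.958) and Cyp2e1 (0.949), a glutathione transferase, a fatty acid binding protein and a cytochrome P450. All 22 had negative log2 fold changes (median -2.35), and 0 passed. The 16 hepatocyte marker genes took 0.000434% to 0.0146% of counts in the libraries labelled Dnmt3a+/- and 0.00223% to 0.162% in WT. In the libraries labelled Dnmt3a+/- replicates 2 and 4, 7 and 8 of the 16 markers were at 0. In replicates 1 and 3 of that label 0 of 16 were at 0. In WT, 1 was at 0 in replicate 1 and 0 in replicates 2 to 4. Both libraries with many zeros carried the Dnmt3a+/- label, and whether the zeros belong to the label or to those libraries was not tested. The r values describe the counts the chains were chosen on, and genes that follow the chains share their direction. The part of liver RNA in the fibrinogen counts was not tested.

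**Figure D4:**
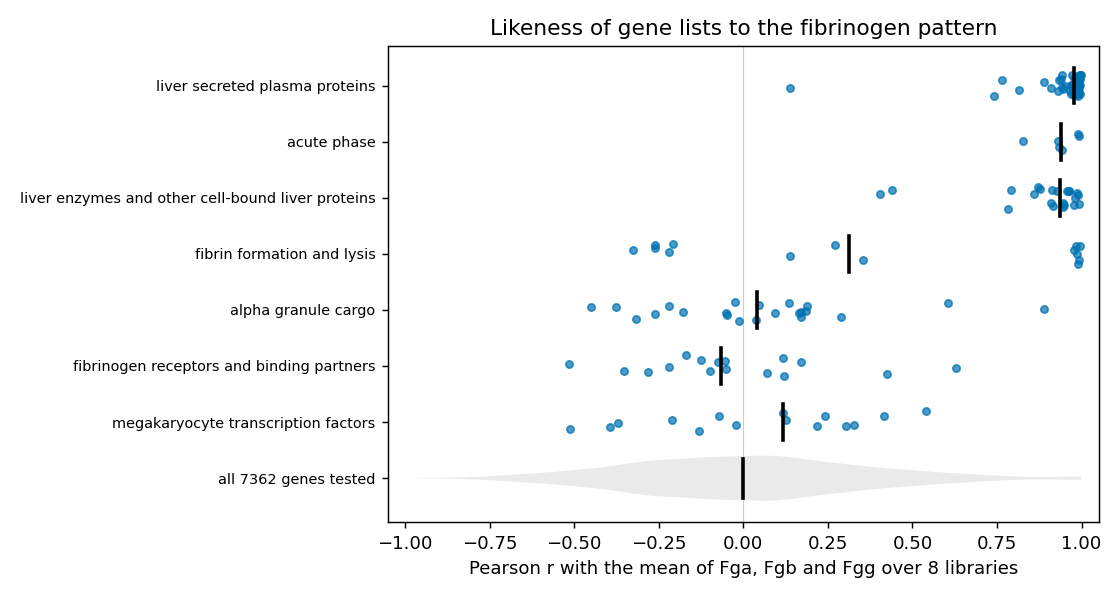
Pearson r of each tested gene with the mean of Fga, Fgb and Fgg over 8 libraries, 1 dot per gene by list, with black bars for medians and the spread of all 7362 genes tested in grey. The medians of the liver lists of secreted and of cell-bound proteins sit near 1 (0.977 and 0.936). So does that of the acute phase list (0.938), which mostly repeats their genes. The median of alpha granule cargo is 0.04, with genes from -0.45 to 0.889. That of fibrinogen receptors and binding partners is -0.07, with genes from -0.51 to 0.63.

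Some liver plasma protein genes were still read where the chains were at 0. Of 63 such genes in the table, 9 had more than 3 counts in both libraries labelled Dnmt3a+/- replicates 2 and 4, and 34 were at 0 in both. Among those 9 were Alb, F10 and Trf. F10, coagulation factor X, had 685 and 864 counts in the libraries labelled Dnmt3a+/- replicates 2 and 4, and 817 in WT replicate 3, so its CPM there was 82.7% and 73.2% of that of WT replicate 3. In TPM, F10 was lowest in those libraries, at 28.74 and 25.80, against 31.15 to 45.86 in the others. Its r with the chains was 0.14. Trf, transferrin, followed the chains (r = 0.993) but kept 36 and 60 counts in the libraries labelled Dnmt3a+/- replicates 2 and 4, 1.20% and 1.40% of its CPM in WT replicate 3. For Alb those shares were 0.0261% and 0.0274%, and the chains had no count.

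Clotting genes divided by that pattern. Of 14 tested genes of fibrin formation and lysis, 6 had an r over 0.9 with the chains, and all 6 are also in the liver lists. Named after their values were seen, they were F2 (prothrombin), Plg (plasminogen), Serpinc1, Serpinf2 (alpha-2-antiplasmin), Kng1 (kininogen) and Vtn (vitronectin), with log2 fold changes from -3.40 for Plg to -4.03 for Kng1, none past the edgeR threshold. The remaining 8 had an r of at most 0.355. Among them F5, coagulation factor V, was at 756 ± 57.7 TPM in the libraries labelled Dnmt3a+/- and 794 ± 148 TPM in WT (SD, n = 4 each). F13a1, whose product cross-links fibrin, was at 570.2 ± 137.4 TPM in the libraries labelled Dnmt3a+/- and 585 ± 166 TPM in WT. In the library labelled Dnmt3a+/- replicate 2, where no fibrinogen RNA was read, F13a1 stood at 474 TPM and F5 at 741 TPM.

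**Figure D5:**
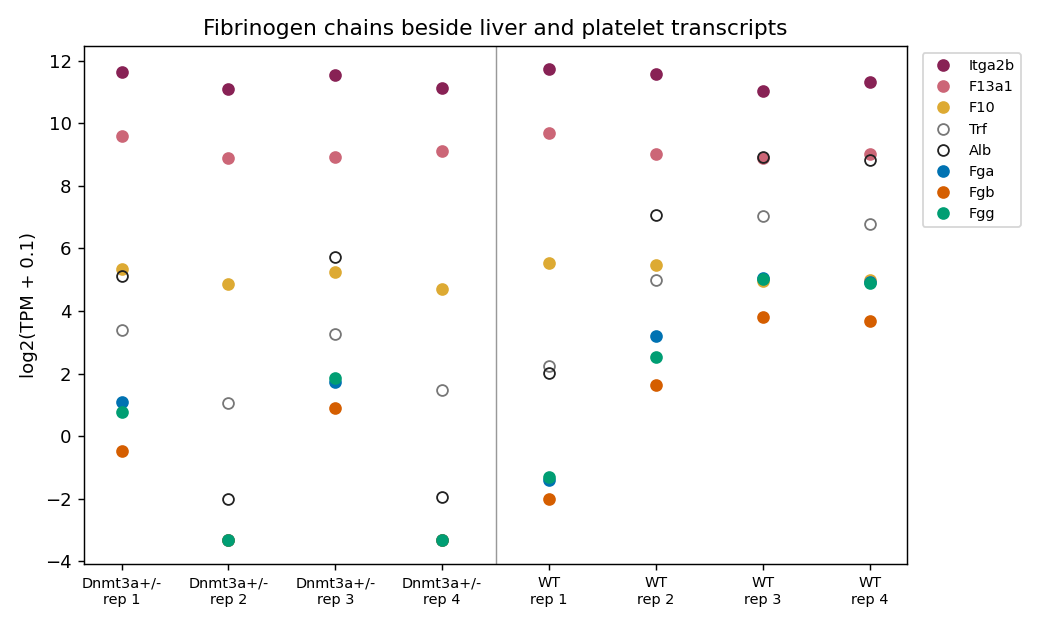
Log2(TPM + 0.1) of Fga, Fgb and Fgg beside Alb and Trf (open circles) and Itga2b, F13a1 and F10 (filled), 1 point per library. Where the chains are at 0, Itga2b and F13a1 stay within the range of the other libraries, and Trf stays above Alb. F10 is lowest there, at 28.74 and 25.80 TPM, against 31.15 to 45.86 in the others.

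The receptor for fibrinogen was abundant in every library. Itga2b, the alpha IIb chain, averaged 2644 ± 490 TPM in the libraries labelled Dnmt3a+/- and 2763 ± 548 TPM in WT, with an r of 0.07 with the chains. Itgb3, its beta 3 partner, averaged 599 ± 67.9 TPM in the libraries labelled Dnmt3a+/- and 613 ± 109 TPM in WT, with an r of -0.17 (SD, n = 4 for each group and gene). The difference between labels was -0.09 for Itga2b (SE 0.17) and -0.06 for Itgb3 (SE 0.13) on the log2 scale, each with an edgeR adjusted p of 0.998. Of 16 tested genes of fibrinogen receptors and binding partners 12 had negative log2 fold changes (median -0.08), 0 had an r over 0.9 and 0 passed. Of 12 tested genes of integrin uptake, the route by which platelets take in plasma fibrinogen, 6 were negative and 6 positive (median 0.03), and 0 passed, with Ap2m1, an adaptor of coated pits, and Rab11a, a recycling GTPase, at a mean of 1595 and 985.4 TPM over the 8 libraries.

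Alpha granule cargo did not share the pattern of the chains. Of 22 tested cargo genes, 0 had an r over 0.9 and the median was 0.04. The highest, named after its values were seen, was Serpinf1 (r = 0.889, log2 fold change -2.69, SE 0.62, edgeR adjusted p = 0.647), which is also in the liver lists. Ppbp and Pf4, chemokines of the granule, had r values of 0.13 and 0.04, and Vwf, von Willebrand factor, 0.17. The cargo list had 13 negative and 9 positive log2 fold changes (median -0.07), with 0 past the threshold.

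Relatives and regulators of the chains were scarce or did not follow them. Of 18 genes that share the fibrinogen domain only Angpt1, an angiopoietin, and Fgl2 were tested, with r values of -0.03 and -0.28 and no pass. Fgl1, a relative secreted by liver, had 0, 0, 1 and 0 counts in the libraries labelled Dnmt3a+/-, and 0, 5, 33 and 13 in WT. Hnf4a, a transcription factor of hepatocytes, had 6, 0, 2 and 0 counts in the libraries labelled Dnmt3a+/-, and 0, 10, 11 and 11 in WT. Hnf4a and Fgl1 were named after their values were seen and were too scarce to be tested. Of 5 tested regulators of the fibrinogen genes in liver, 3 were negative and 2 positive (median -0.24), and 0 passed. Among them Jak1, a kinase, Stat3, the factor that carries the interleukin 6 signal, and Cebpa, a C/EBP factor, had r values of -0.53, 0.03 and 0.51. The highest r, named after it was seen, was 0.72 for Il6st, the shared receptor chain of interleukin 6. All 15 tested transcription factors of megakaryocytes had an r of at most 0.541, with 0 past the threshold.

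Of 6 tested acute phase genes, a class that rises in liver during inflammation along with fibrinogen, 5 had an r over 0.9. The most abundant were Hpx, the heme binder hemopexin, at -3.45 on the log2 scale (SE 1.18), Hp, the hemoglobin binder haptoglobin, at -2.95, Orm1, orosomucoid, at -3.83, and Itih4 at -3.44 (SE 0.98). All 6 were negative (median -3.38), and 0 passed. Of the 6, 5 are also in the liver lists, and Crp, C-reactive protein, is not (r = 0.828, named for that after its values were seen).

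The neighbours of the fibrinogen genes on chromosome 3 were read little or not at all. Plrg1, a splicing factor gene 5.7 kb beyond Fgb, had 7, 10, 7 and 24 counts in the libraries labelled Dnmt3a+/-, and 6, 14, 10 and 11 in WT. Its r with the chains was -0.01 and its log2 fold change 0.06 (SE 0.40, edgeR adjusted p = 0.998). Plrg1 was thus read in the libraries where all chains were at 0. Lrat, which makes retinyl esters and lies 103.8 kb away on the other side, had at most 1 count in the libraries labelled Dnmt3a+/-, and 0, 1, 5 and 4 counts in WT. Dchs2, 78.1 kb beyond Fgb, had at most 1 count in the libraries labelled Dnmt3a+/- and at most 3 in WT, and Rbm46, 131.2 kb before Fgg, had 0 in all 8.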

How the data were processed

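Platelet RNA libraries of 4 mice labelled Dnmt3a+/- and 4 WT mice were compared, 1 library per mouse. The authors deposited estimated counts, written as whole numbers, and TPM values that sum to 1000000 per library. The tools named per the submitters' processing notes are RSEM, STAR, cutadapt and DESeq2, with the build mm10; their roles and versions were not given in the sources used here. Rounding the deposited estimated counts before testing changed no value. The edgeR fit (edgeR 4.0.16, R 4.3.3) used TMM factors, filterByExpr by label (minimum count 10, minimum total 15), glmQLFit, glmQLFTest and Benjamini-Hochberg adjustment over 7362 genes at 0.05. It was tested on simulated data. limma 3.58.1 and DESeq2 1.42.0 served as alternatives. An SE is the absolute log2 fold change divided by the square root of F.

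The chains and gene lists were chosen with earlier results of these data known. Named genes were the chains, Alb, Dnmt3a, platelet genes given as levels, 2 neighbours on each side, the 10 genes most like the chains, and up to 4 of the most abundant members per list. Likeness is Pearson r on log2(CPM + 0.5) with the mean of the standardised chains. Coordinates are from GENCODE M21, and promoter sequences from RefSeq. Marker lists of neutrophils, monocytes, B cells, T and NK cells, endothelium, adipocytes, heart muscle, and lung and mesothelium had 0, 4, 3, 1, 8, 4, 1 and 0 genes tested, of which 0 had an r over 0.9 with the chains and 0 passed. Every p-value given here sets a difference between labels against the spread between mice of a label.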

Additional observations from a re-analysis of the deposited data

How the results depend on the processing

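Under 6 alternatives (RLE and upper-quartile factors, a strict filter, DESeq2, limma on TPM with 0.1 or 1 added), all chains stayed lower in the libraries labelled Dnmt3a+/- and did not pass. With no low-count filter the log2 fold changes were -3.86 for Fga, -3.74 for Fgb and -3.81 for Fgg, and each passed. With Alb as a covariate the values were -0.11, -0.01 and 0.10, so Fgg changed sign. The chains were chosen with their correlation with Alb known, so that fit supports nothing. Leaving out 1 library at a time gave -4.86 to -3.30 for Fga, -5.35 to -3.15 for Fgb and -5.16 to -3.19 for Fgg, and Fga passed only without WT replicate 1. The count of genes called was 250 without a filter and 9 with DESeq2. It ran from 0 to 135 when 1 library was left out, with 135 without WT replicate 1, 1 without Dnmt3a+/- replicate 2 and 0 in the other 6 fits. The cause of these moves was not tested.

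Same-numbered libraries deviated together at 0.077, 0.11, 0.11 and -0.098 in replicates 1 to 4. The highest value with a library of another number was 0.082, 0.060, 0.18 and 0.13. With so few libraries these values cannot exclude a pairing of littermates, and the main fit used none. With the replicate number as a block, the log2 fold changes were -3.92 for Fga, -3.72 for Fgb and -3.71 for Fgg, with 0 genes called.

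Correlations with Alb ran, for Fga, Fgb and Fgg, from 0.970, 0.957 and 0.952 with 1 CPM added to 0.9997, 0.9987 and 0.9974 on linear CPM, with 0.994, 0.989 and 0.988 with 0.1 CPM added and 0.989, 0.970 and 0.985 on TPM. In counts in place of TPM the mean log2 ratio of Fgg to Fgb was -0.11 where it was 1.12 in TPM, and that of Fga to Fgb 0.36 where it was 1.27. Libraries with under 10 Alb counts hold too few Alb counts to give a chain ratio.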
